A study of Xenopus laevis with 15 samples.

Results

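Cell junction genes were followed in Xenobots, motile balls of tissue that explanted embryonic ectoderm of Xenopus laevis, the African clawed frog, forms in culture. The genes were chosen by name, as all copies of the claudins, occludin, the zonula occludens proteins (tjp1 to tjp3), the classical and other cadherins, the protocadherins, the desmosomal genes and the connexins. This gave 150 of the 42638 genes in the table, under 85 names, because most names have a copy on each of the subgenomes that the species carries (.L and .S, called homeologs). By class these were 41 tight junction genes, 34 cadherins, 16 desmosome genes, 32 gap junction genes and 27 protocadherins.

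RNA from 15 libraries was sequenced, in 5 groups of 3, and each library was made from 50 pooled Xenobots. All embryos were wild type (WT), and the animal caps, the roof of the early embryo that is fated to become ectoderm, had developed for 7 days at 14 °C in diluted MMR, an amphibian saline. The Ctrl group was taken before any stimulus and received none. The extract groups received a homogenate of 3 blastula-stage Xenopus embryos, at 10 µL of extract in 14 mL of medium, and were taken right after the stimulus (0 h) or 4 h later. The ATP groups received ATP at 250 µM in 4 mL of medium and were taken at the same times. Comparisons of extract with ATP thus also hold this difference in volume. A 4 h group without stimulus was not analysed here, so values at 4 h hold both elapsed time and stimulus. No label says that the 3 samples of a group came from separate clutches, so the p-values measure only the spread between these samples, which may be technical.

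Tight junctions seal the space between epithelial cells, and claudins are the membrane proteins that decide which ions pass. Adherens junctions and desmosomes hold cells together through cadherins, tied inside the cell to actin through catenins and to keratin filaments through plakoglobin, plakophilins and desmoplakin. Gap junctions are channels of connexins through which ions and small molecules, among them calcium signals, pass from cell to cell. In the frog embryo the epidermis, which forms from ectoderm, is a sealed sheet with goblet cells, multiciliated cells, ionocytes and small secretory cells.

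The libraries held between 12583039 and 20325075 expected counts, of which 20.1% to 43.3% lay on ribosomal RNA genes. The 150 junction genes took 84336 to 132285 counts per library, which was 0.865% to 1.01% of the counts outside ribosomal RNA. The labelled epidermal cell type was checked against its markers: epcam.L stood at 208 to 298 CPM (counts divided by the effective library size) and the goblet cell gene itln1.L at 3594 to 5767 CPM, while 9 neural genes together stood at 1.24 to 3.85 CPM. The other goblet cell gene checked, otogl.L, reached 0.119 CPM at most and was not tested. Muscle and mesoderm markers were not absent, and their summed level differed between libraries, from 6.27 to 138 CPM. The CPM scaling used the trimmed mean of M-values (TMM). Because no transcript lengths were available, CPM values compare libraries for 1 gene and do not rank genes against each other.

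Of the 150 genes, 83 had enough counts to be tested, or 55.3%, against 56.4% of all genes. The share differed between classes, with 14 of 16 desmosome genes, 20 of 32 gap junction genes, 23 of 41 tight junction genes, 12 of 27 protocadherins and 14 of 34 cadherins tested. The 67 genes left out had a median of 7 counts over all 15 libraries together, and 7 of them had none. At the median library, 15 genes were above 100 CPM, 28 between 10 and 100, 32 between 1 and 10 and 75 at 1 or below. A filter on low counts can let a gene in through the group where it is high, so the tested genes are not a picture of all 150.

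Reads were concentrated on few genes. Desmosome genes took 42.1% to 59.7% of the junction gene counts, tight junction genes 20.9% to 30.8%, cadherins 9.84% to 14.0%, gap junction genes 4.95% to 8.44% and protocadherins up to 5.28%. These shares also depend on transcript length. A single gene, dsp.L, one copy of desmoplakin that anchors keratin filaments to the desmosome, held 18.9% of all counts on junction genes, and the 10 genes with the most counts held 71.0%.

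Tight junction genes were led in counts by both copies of cldn4, by tjp1.S and by cldn7.L. The claudin cldn4.L measured 416, 458 and 460.1 CPM in the Ctrl libraries, 534, 498 and 385 in extract 0 h, 457, 465 and 592 in extract 4 h, 524, 542 and 576 in ATP 0 h and 384, 548 and 558 in ATP 4 h. The ATP 0 h libraries lay above all Ctrl libraries, while the other stimulated groups overlapped Ctrl. The other copy, cldn4.S, overlapped Ctrl in every stimulated group, ATP 0 h included. The scaffold gene tjp1.S, which codes for ZO-1, ranged from 166 to 228 CPM over all libraries, and ocln.S, for occludin, from 59.6 to 81.5 CPM.

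Among cadherins the epidermal E-cadherin cdh1.S measured 527 ± 29.8 CPM in Ctrl (SD, n = 3), 546 ± 29.7 in extract 0 h, 567 ± 74.4 in extract 4 h, 584 ± 53.0 in ATP 0 h and 556 ± 64.5 in ATP 4 h. Libraries of every group overlapped those of every other. C-cadherin, cdh3, the maternal cadherin of Xenopus, was present from both copies, with cdh3.L at 69.5 ± 0.764 CPM and cdh3.S at 28.1 ± 4.02 CPM in Ctrl (n = 3). The cadherin cdh26.S was at 68.4 ± 11.2 CPM in Ctrl (n = 3). N-cadherin, cdh2, typical of neural and mesodermal tissue, had 69 counts on its .L copy and 31 on its .S copy over all 15 libraries and was not tested. M-cadherin, cdh15, is a muscle cadherin in mammals, and the muscle markers varied widely between the libraries. Its .L copy ranged from 9.34 to 13.8 CPM. The sparse .S copy, not tested, had 8, 10 and 0 counts in Ctrl and 3, 8 and 5 in ATP 4 h. In the other groups no library held more than 3 counts of it.

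The desmosomal cadherin dsg2.L measured 523, 465 and 652 CPM in Ctrl, 548, 535 and 631 in extract 0 h, 586, 562 and 653 in extract 4 h, 521, 527 and 686 in ATP 0 h and 690.1, 509 and 616 in ATP 4 h. Every group overlapped every other. Its partner cadherin dsc3.L ranged from 211 to 327 CPM, and plakoglobin, which links both cadherins to desmoplakin and also serves adherens junctions, ranged from 114 to 164 CPM for jup.L and from 176 to 256 CPM for jup.S. The plakophilin pkp1.L, at a lower level, spanned 2.34 to 8.57 CPM, a ratio of 3.67 that exceeds the 3.36 of dsp.L.

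Gap junction genes with the most counts included gjc1.L (connexin 45), gjb2.L (connexin 26) and gja7.S. Connexin 45 measured 171 ± 22.4 CPM in Ctrl, 152 ± 20.8 in extract 0 h, 153 ± 32.8 in extract 4 h, 176 ± 28.6 in ATP 0 h and 138 ± 37.2 in ATP 4 h (SD, n = 3 each). Connexin 26 stood between 84.7 and 117 CPM in all libraries. Connexin 32, gjb1.L, the main connexin of mammalian liver, stood at 11.7 ± 1.28 CPM in Ctrl (n = 3). Connexin 43, gja1, the main connexin of many mammalian tissues, was low, with gja1.L at 0.233 to 4.29 CPM. Among pannexins, channel proteins with a topology like that of connexins, only panx1.L was tested, at 12.9 to 19.1 CPM.

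Protocadherins with the most counts were pcdh1.L, pcdh7.L, the NF-protocadherin of Xenopus ectoderm, pcdh1.S and the gamma cluster gene pcdhga3.L. In Ctrl, pcdh1.L measured 111 ± 8.74, pcdh7.L 56.2 ± 9.50, pcdh1.S 32.1 ± 2.06 and pcdhga3.L 32.1 ± 2.86 CPM (SD, n = 3). Over all 43 junction genes above 10 CPM, the highest library exceeded the lowest by a median of 1.56 times, and 35 of the 43 varied by less than 2 times. The 3 genes beyond 3 times were dsp.L, dsp.S and cldn6.1.S.

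**Figure D1:**
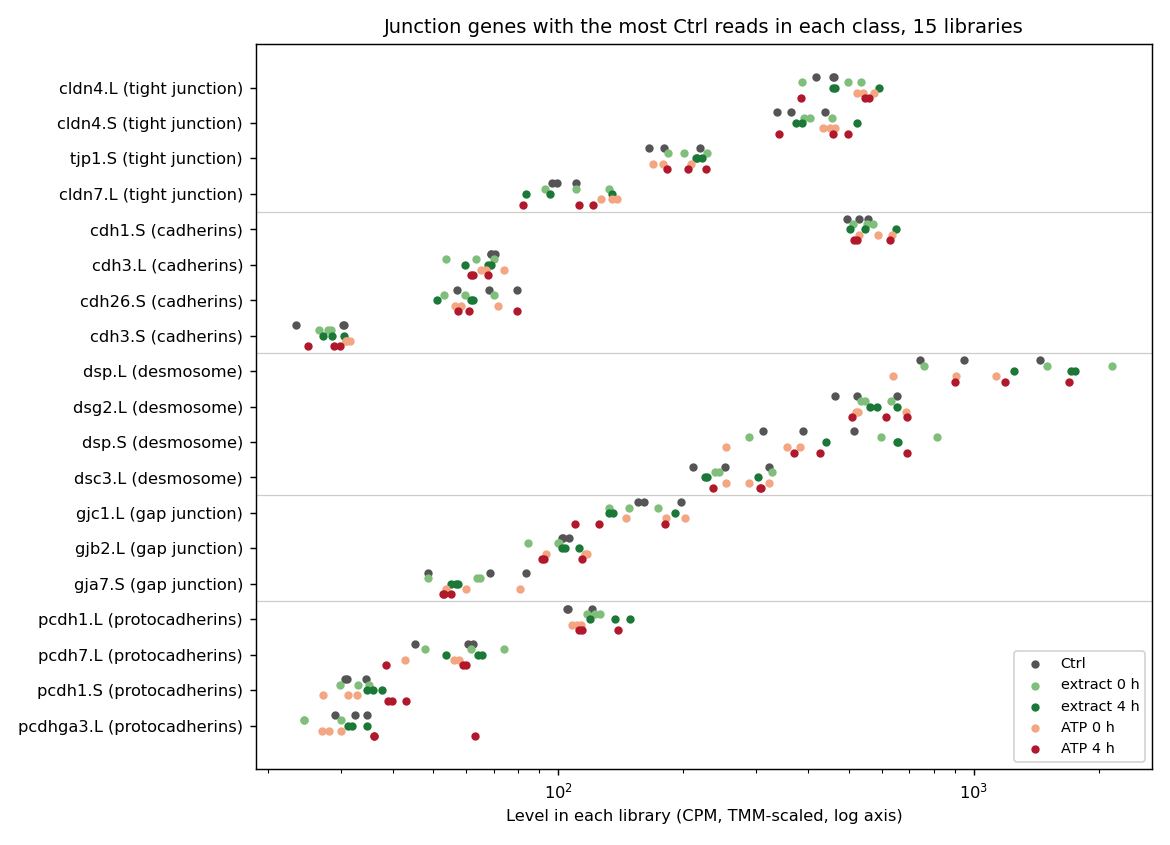
Level of 19 junction genes among those with the most Ctrl counts in each of the 5 classes, as CPM on a log axis, 1 point per library and 1 colour per group. The points of a gene mostly overlap between groups, the widest spread being that of dsp.L, from 638 to 2146 CPM.

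Homeolog copies shared the reads unevenly. Of the 65 names with both copies in the table, 35 had at least 500 counts, with a median of 66.4% on the .L copy. For 8 names over 80% of counts lay on .L, for 4 over 80% on .S, and 23 lay between. E-cadherin came nearly all from .S, with 1.81% to 3.70% of counts on cdh1.L over the libraries. The opposite held for dsg2 (99.8% on .L), dsc3 (97.3%), gjb2 (98.6%), cldn8.1 (99.9%), the plakophilin pkp1 (99.8%) and pkp2, whose .S copy had no counts. In cldn4 (54.2%), cldn7 (56.5%) and jup (38.9%) both copies were well represented. RSEM divides reads that fit several copies, so the split between near-identical copies is uncertain, and the lengths of the copies were not available.

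**Figure D2:**
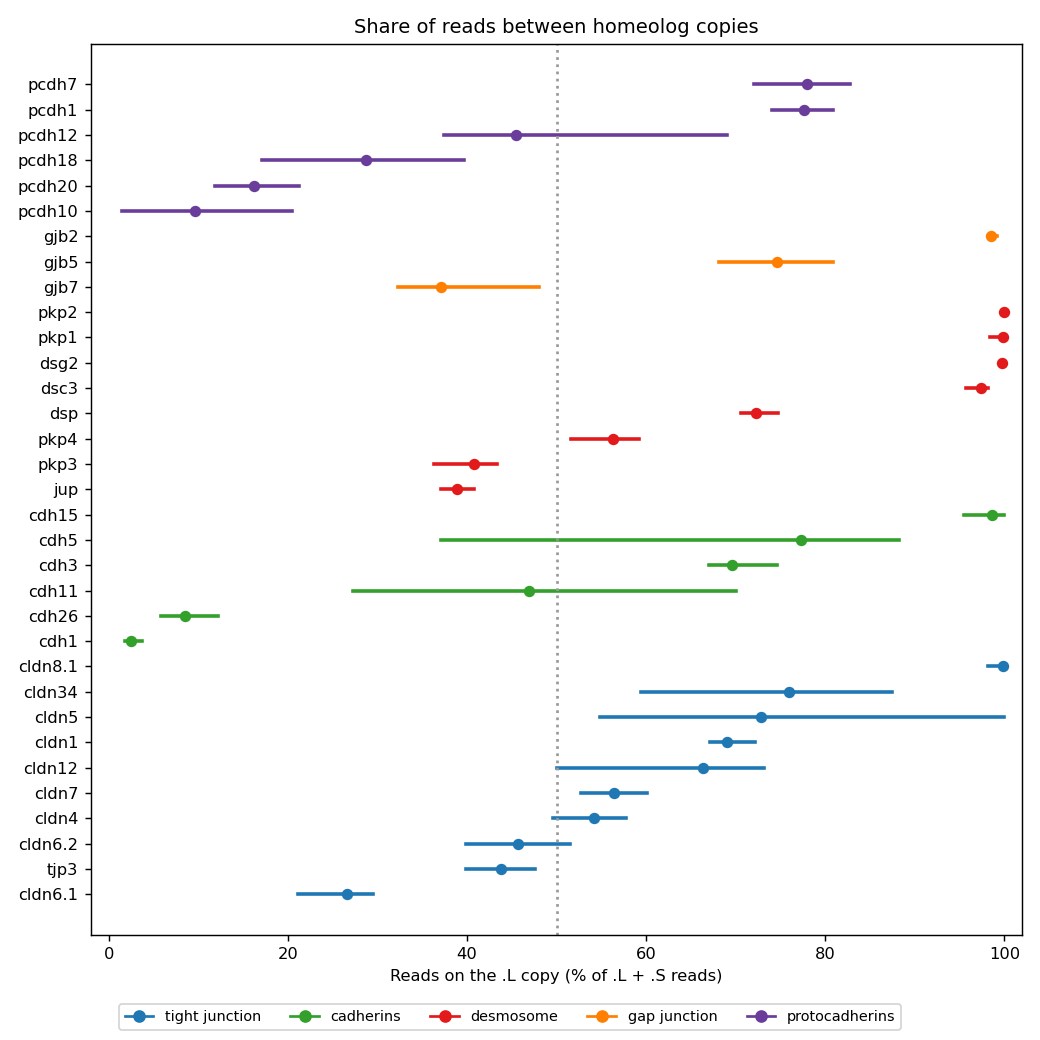
Percent of counts on the .L copy for 33 names with at least 500 counts, coloured by class. Points give the share over all 15 libraries and bars the lowest and highest library, and the dotted line marks equal shares; cdh1 lies at the left edge and dsg2, pkp1, pkp2 and cldn8.1 lie at the right edge.

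The shares were stable for abundant genes and wide for sparse ones, such as cdh5, at 37.0% to 88.2% over libraries. Both copies were tested for 32 names, and their log2 fold changes against Ctrl had the same sign in 29 of 32 for extract 0 h, 22 for extract 4 h, 24 for ATP 0 h and 23 for ATP 4 h. The copies differed by more than 2 standard errors for 0, 2, 1 and 0 names, those at extract 4 h being cdh26 and gja1. The sparse gja1.S entered the tests through extract libraries, so its direction there is not independent of the filter. Neighbouring genes also differed in counts. In the RefSeq annotation of Xenopus_laevis_v10.1 cdh1 stands next to cdh3 on both subgenomes, with 3468 against 16268 counts on L and 135507 against 7094 on S. There cdh2 stands next to dsc3, and cdh2.L had 69 counts while dsc3.L had 65362.

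The main comparisons asked which junction genes differed directly after a stimulus and 4 h later. No junction gene passed an adjusted p-value of 0.05 in any of the 11 tests with edgeR's quasi-likelihood test, adjusted over all 24052 genes tested. These tests had no term for the replicate number, and calls with it as a block are given below. Over all genes, the same tests called between 0% and 0.0582%. The standard error of a log2 fold change against Ctrl, as the median over genes, was between 0.157 and 0.165 above 10 CPM, from 0.304 to 0.311 at 1 to 10 CPM and from 0.607 to 0.748 at or below 1 CPM. The largest absolute log2 fold change against Ctrl was 0.523 for genes at 10 to 100 CPM and 0.589 above 100 CPM, but 2.37 at 1 to 10 CPM.

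**Figure D3:**
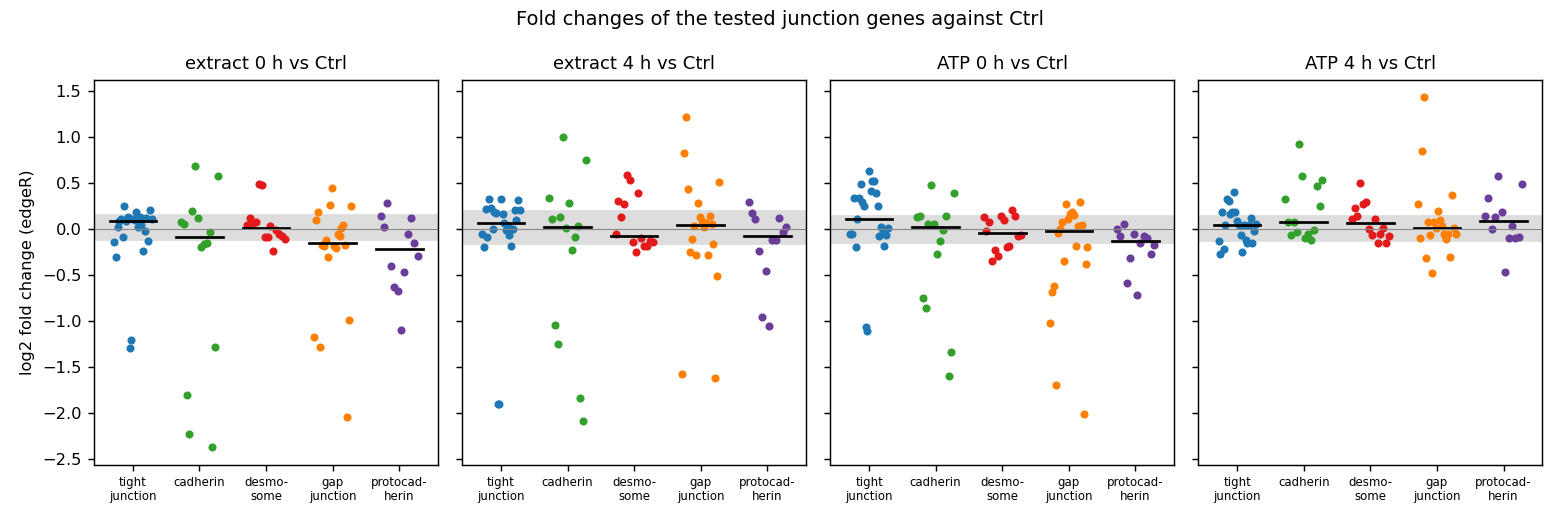
Log2 fold change of each of the 83 tested junction genes against Ctrl in the 4 stimulated groups, by class, from edgeR. Black bars are class medians and the grey band is the interquartile range of all 24052 tested genes; the lowest points, under -1, are genes of low level.

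For extract 0 h against Ctrl, edgeR called 0 of 83 junction genes, as did DESeq2 and limma-voom, and 0% of all genes tested were called by edgeR. At an unadjusted p under 0.05 there were 6 junction genes, all lower, beside 4.53% of all genes (3.24% lower and 1.29% higher). The median log2 fold change was 0.09 for tight junction genes, 0.01 for desmosome genes, -0.09 for cadherins, -0.15 for gap junction genes and -0.22 for protocadherins, against 0.01 for all genes. The summed level of the gap junction genes was 393, 406 and 402 CPM in extract 0 h and 477, 429 and 408 CPM in Ctrl, without overlap. The nearest values were 406.4 and 408.2 CPM. In the comparisons with Ctrl, the only other class sum without overlap was that of tight junction genes at ATP 0 h. With libraries exchanged freely, a full separation of 3 from 3 has a two-sided exact permutation p of 0.1. Exchange only within pairs of the same replicate number would give a larger p. There was no overlap between the groups for 5 junction genes, all lower in extract and among them cdh5.L, gjb2.L, gjb2.S and pcdh18.S, beside 7.69% of all genes in either direction, 3.70% lower and 3.98% higher.

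The smallest p-value belonged to pcdh18.S, a delta-type protocadherin. It measured 7.20, 7.38 and 3.45 CPM in Ctrl and 2.89, 2.57 and 3.07 CPM in extract 0 h. All extract libraries were lower, yet the third Ctrl library lay near them, and the log2 fold change was -1.10 ± 0.277 (SE, edgeR adjusted p = 0.861). The mesenchymal cadherin cdh11.S measured 2.62, 6.40 and 1.12 CPM in Ctrl and 0.553, 1.13 and 0.452 CPM in extract 0 h, so the groups overlapped. In each pair of libraries with the same number, the gene was lower with extract. Its log2 fold change was -2.23 ± 0.730 (edgeR adjusted p = 0.906) and -1.37 without Ctrl replicate 2. With the replicate number as a block, edgeR called it, at -2.17 and an adjusted p of 0.0465. It was the only junction gene called in this comparison by that fit, whose share of all genes called is not given here.

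For extract 4 h against Ctrl, edgeR, DESeq2 and limma-voom again called 0 of 83, and edgeR 0% of all genes. Unadjusted p-values under 0.05 were found for 8 junction genes, 2 higher and 6 lower, beside 7.27% of all genes (3.70% higher and 3.57% lower). Groups did not overlap for 11 junction genes, 7 higher and 4 lower, beside 11.7% of all genes (6.05% higher and 5.68% lower). Those higher included the tight junction genes tjp3.S and cldn34.L, the cadherins cdh1.L and cdh6.L, the connexin gja1.S and the protocadherin pcdh1.S. With 11, 15 and 10 counts against 8, 7 and 5 in Ctrl, gja1.S entered the tests through extract libraries. Its direction is thus not independent of the filter on low counts. Class medians ran from -0.08 for protocadherins to 0.07 for tight junction genes, against 0.00 for all genes.

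The vessel claudin cldn5.L, which in mammals seals endothelial junctions, had the smallest p-value. It measured 3.40, 3.22 and 1.12 CPM in Ctrl and 0.963, 0.620 and 0.524 CPM at extract 4 h. All extract libraries were lower than all Ctrl libraries, with a log2 fold change of -1.90 ± 0.475 (edgeR adjusted p = 0.644). The value for pcdh18.S was -1.06 ± 0.273 (edgeR adjusted p = 0.644), with extract libraries at 2.61, 2.84 and 3.27 CPM, all below Ctrl. The protocadherin pcdh1.L stood at 149, 137 and 119 CPM against 106, 105 and 121 CPM in Ctrl, and the groups overlapped (log2 fold change 0.29 ± 0.117, edgeR adjusted p = 0.661).

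For ATP 0 h against Ctrl, edgeR, DESeq2 and limma-voom called 0 of 83 junction genes, and edgeR 0% of all genes. At an unadjusted p under 0.05 there were 5, of which 2 were higher (cldn7.L and cldn6.2.S) and 3 lower, among them pcdh18.S and cldn5.L, beside 3.58% of all genes, 1.59% higher and 1.99% lower. Groups did not overlap for 16 junction genes, 13 of them higher with ATP, or 15.7% of those tested, beside 5.40% of all genes higher, 3.81% lower and 9.21% in either direction. Of the 13, 8 were claudins (cldn4.L, cldn6.1.L, cldn6.1.S, cldn6.2.L, cldn6.2.S, cldn7.L, cldn7.S and cldn34.L), and the others included both copies of the plakophilin pkp3, the connexin gjb7.S and the C-cadherin copy cdh3.S.

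The claudins cldn4, cldn6.1, cldn6.2 and cldn7, a group of 8 genes singled out after their values were seen, all had a log2 fold change above 0, with a median of 0.40 and a range from 0.25 to 0.63. With size factors by relative log expression (RLE) their median was 0.40, and without ribosomal RNA genes 0.39. The median over all tight junction genes tested was 0.11 and over all genes 0.00. None passed the test. At extract 0 h the same 8 genes ran from 0.02 to 0.18, with a median of 0.10, and each overlapped Ctrl. That comparison uses the same Ctrl libraries, so it is not a second observation of the higher level. The summed level of all tight junction genes was 1788, 1765 and 1964 CPM after ATP and 1551, 1586 and 1708 CPM in Ctrl, without overlap. The sums of the other classes overlapped Ctrl at ATP 0 h. In single libraries cldn7.L measured 139, 135 and 127 CPM after ATP and 110.2, 99.4 and 96.5 CPM in Ctrl, and cldn6.2.S measured 15.9, 13.8 and 16.4 CPM against 13.2, 9.53 and 9.38 CPM. All ATP 0 h libraries were above all Ctrl libraries for both genes, with log2 fold changes of 0.39 ± 0.180 and 0.52 ± 0.244 (edgeR adjusted p = 0.984 for each).

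Marker sums differed in the same libraries. The 4 cement gland genes together stood at 125, 139 and 209 CPM in ATP 0 h against 97.6, 124 and 109 CPM in Ctrl, and the groups did not overlap. Of these genes, both copies of agr2 were higher in ATP 0 h without overlap. Both copies of ag1 overlapped Ctrl and had lower means. For ag1.L the values were 6.25, 7.56 and 10.7 CPM against 7.40, 10.1 and 11.7 CPM in Ctrl. For ag1.S they were 5.66, 6.62 and 8.87 CPM against 5.04, 8.28 and 14.5 CPM. The 2 goblet cell genes stood at 4002, 5547 and 5767 CPM against 4699, 4999.6 and 3614 CPM and overlapped, while the 8 multiciliated cell genes stood at 230.0, 260.4 and 306 CPM against 224, 229 and 219 CPM and did not. All cement gland and multiciliated genes, and 1 of the 2 goblet cell genes, had reads in every library. The goblet sum was nearly all itln1.L, since otogl.L reached 0.119 CPM at most. The 7 ionocyte genes, all with reads in every library, stood at 284, 282 and 289 CPM against 280.2, 273 and 236 CPM, also without overlap. Of the ionocyte genes only atp6v1b1.L did not overlap Ctrl, at 140, 143 and 139 CPM against 137, 123 and 109 CPM. Both copies of foxi1 and of ubp1, ca12.L and atp6v0d2.L overlapped. Of the multiciliated genes, dnai1.L, both copies of foxj1 and the sparse mcidas.S were higher without overlap. The others, ccdc78.S, mcidas.L and both copies of tekt2, overlapped. The part of these cell types in the claudin values was not tested. In libraries of whole pooled tissue, a different number of cells of a type and a different amount of RNA per cell cannot be told apart.

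With means below Ctrl at ATP 0 h, pcdh18.S measured 3.39, 4.14 and 3.50 CPM (log2 fold change -0.72 ± 0.268) and cldn5.L 1.19, 1.93 and 0.545 CPM (-1.07 ± 0.444), each with an edgeR adjusted p of 0.984. Both genes overlapped Ctrl. Set against the Ctrl library of the same number, cldn5.L was lower in every pair, and pcdh18.S in all but the third.

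For ATP 4 h against Ctrl, edgeR, DESeq2 and limma-voom called 0 of 83, while edgeR called 0.00416% of all genes, which is 1 gene. Unadjusted p-values under 0.05 were found for 3 junction genes, all higher, beside 3.29% of all genes (1.65% higher and 1.63% lower). Groups did not overlap for 5 junction genes, 4 higher (cdh19.S, dsg2.S, pcdh1.S and pcdhga3.L) and 1 lower (cdh3.L), beside 8.27% of all genes (3.80% higher and 4.47% lower). The 8 claudins stood at a median of 0.05 log2 units, and 5 of 8 were above 0.

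The protocadherin pcdh1.S had the smallest p-value, at 43.0, 39.9 and 38.9 CPM against 30.7, 31.1 and 34.5 CPM in Ctrl, with no overlap (log2 fold change 0.34 ± 0.103, edgeR adjusted p = 0.9998). The gamma protocadherin pcdhga3.L measured 63.2, 36.1 and 36.0 CPM against 34.7, 32.5 and 29.0 CPM. One library stood far above the others, and the log2 fold change of 0.49 ± 0.178 (edgeR adjusted p = 0.9998) came to 0.18 without ATP 4 h replicate 1. Connexin 40, gja5.L, a connexin of arteries and heart in mammals, had 20, 17 and 5 counts against 5, 9 and 1 in Ctrl (1.43 ± 0.660, edgeR adjusted p = 0.9998), and the groups overlapped. It entered the tests through its 4 h libraries, so its direction is not independent of the filter on low counts.

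**Figure D4:**
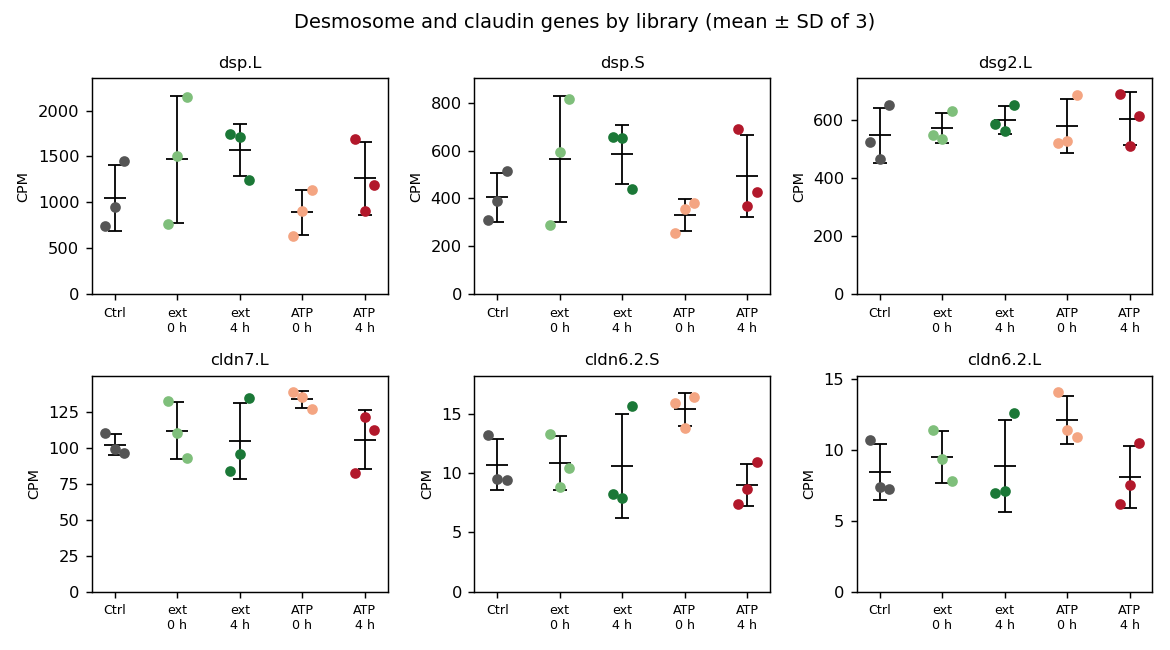
CPM of 3 desmosome genes and 3 claudins in each library by group, with mean and SD (n = 3). Desmoplakin copies vary within groups, from 759 to 2146 CPM for dsp.L at extract 0 h, and the claudin values of ATP 0 h lie above those of Ctrl.

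Desmoplakin varied within groups. Its .L copy measured 744, 946 and 1447 CPM in Ctrl, 759, 1502 and 2146 in extract 0 h, 1751, 1718 and 1248 in extract 4 h, 638, 908 and 1131 in ATP 0 h and 1691, 901 and 1191 in ATP 4 h. The groups overlapped, apart from extract 4 h and ATP 0 h, and the log2 fold changes against Ctrl were 0.49 ± 0.354, 0.59 ± 0.355, -0.23 ± 0.354 and 0.27 ± 0.354 in the same order. The .S copy, which the RefSeq table annotates as a long non-coding RNA, the only junction gene so annotated, was high and low in the same libraries, from 253 to 814 CPM, so that the share of dsp.L stayed between 70.6% and 74.8%. The sum of all desmosome genes ranged from 2446 to 4552 CPM, but from 1388 to 1741 CPM with dsp left out.

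Some partners, named after their values were seen, were high in the libraries with high dsp, and others were not. Periplakin, ppl.L, a plakin of the cornified envelope, measured 407, 431 and 629 CPM in Ctrl, 419, 619.6 and 763 in extract 0 h, 652, 627 and 600.4 in extract 4 h, 358, 419 and 572 in ATP 0 h and 728, 417 and 533 in ATP 4 h. In Ctrl, extract 0 h and ATP 0 h the third library was highest for both ppl.L and dsp.L, and in ATP 4 h the first. The tight junction linker cgnl1.L ranged from 12.4 CPM in ATP 0 h replicate 1 to 43.2 CPM in extract 0 h replicate 3. In these libraries dsp.L was lowest and highest. In extract 0 h, where dsp.L rose from replicate 1 to 3, the desmosome partner perp.S measured 208, 186 and 187 CPM. There the tight junction partner f11r.L measured 171, 143 and 117 CPM. How many partners went with dsp was not counted.

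Directly after the stimuli, dsp.S had the smallest p-value between extract and ATP, at 289, 597 and 814 CPM against 253, 355 and 382 CPM. The groups overlapped, and the log2 difference of extract over ATP of 0.78 ± 0.339 (edgeR adjusted p = 0.742) came to 0.42 without extract 0 h replicate 3. Here edgeR, DESeq2 and limma-voom called 0 of 83 and edgeR 0% of all genes, and 2 junction genes had an unadjusted p under 0.05, beside 5.20% of all genes (3.32% higher and 1.88% lower). Groups did not overlap for 13 junction genes, 12 of them lower with extract, or 14.5% of those tested, beside 6.89% of all genes lower, 7.68% higher and 14.6% in either direction. These 12 were 4 claudins, 3 connexins, 2 cadherins, 2 protocadherins and jup.L. The median log2 difference was -0.21 for tight junction genes and -0.01 for all genes. The 4 comparisons with Ctrl share the Ctrl libraries, and the comparisons of extract with ATP use libraries that were already compared with Ctrl.

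At 4 h, edgeR and limma-voom called 0 of 83 junction genes between extract and ATP, and edgeR 0% of all genes, whereas DESeq2 called 1. The gene was cldn5.L, at 0.963, 0.620 and 0.524 CPM with extract and 3.54, 4.69 and 2.14 CPM with ATP. The groups did not overlap, with a log2 difference of -2.30 ± 0.470 (edgeR adjusted p = 0.966, DESeq2 adjusted p = 0.0482). What share of all genes DESeq2 called in this comparison is not given here. The vascular protocadherin pcdh12.S measured 0.963, 1.55 and 0.589 CPM with extract and 4.75, 2.92 and 1.53 CPM with ATP, overlapping slightly (-1.54 ± 0.418, edgeR adjusted p = 0.966). At an unadjusted p under 0.05 there were 9 junction genes, all lower with extract, or 10.8%, beside 2.96% of all genes lower, 1.32% higher and 4.28% in either direction. Values of 15 junction genes did not overlap between the groups, 10 lower and 5 higher, beside 9.13% of all genes (5.50% lower and 3.64% higher). Those higher with extract were cdh26.L, gja1.S, gja7.S and both copies of tjp3, which codes for the scaffold ZO-3. Since gja1.S entered the tests through extract libraries, its direction here is not independent of the filter.

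**Figure D5:**
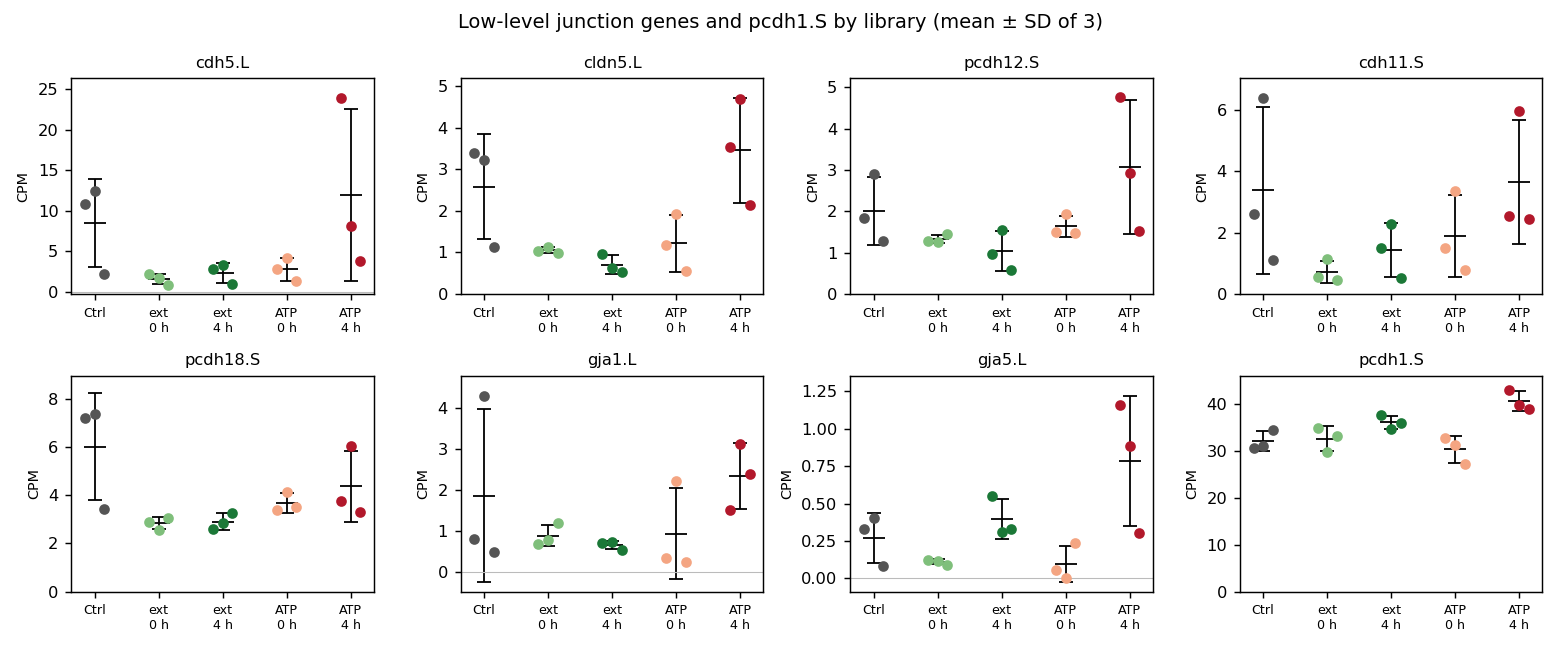
CPM of 7 junction genes of low level and of pcdh1.S in each library by group, with mean and SD (n = 3). For cdh5.L, cldn5.L, pcdh12.S and cdh11.S the highest library belongs to ATP 4 h or Ctrl.

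The genes with the smallest p-values at low level include several that are known from vessels or mesenchyme. VE-cadherin, cdh5.L, the cadherin of endothelial adherens junctions, measured 10.9, 12.4 and 2.24 CPM in Ctrl, 2.21, 1.73 and 0.904 in extract 0 h, 2.82, 3.36 and 0.982 in extract 4 h, 2.80, 4.25 and 1.32 in ATP 0 h and 23.9, 8.12 and 3.80 in ATP 4 h. Within Ctrl the third library was as low as the extract libraries, and within ATP 4 h the libraries spanned 3.80 to 23.9 CPM. The third library was the lowest in each of the 5 groups, as it also was for cldn5.L. Each library of cdh5.L at extract 0 h and ATP 0 h was below the Ctrl library of the same number. At ATP 4 h such pairs went both ways.

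Markers of other tissues also differed between the libraries. The 10 muscle and mesoderm genes, of which 6 had reads in every library and both copies of the muscle determination gene myod1 had none in some, summed to 48.6, 109 and 14.3 CPM in Ctrl, 6.27, 14.7 and 13.5 in extract 0 h, 20.2, 20.2 and 7.07 in extract 4 h, 6.84, 43.9 and 13.1 in ATP 0 h and 72.9, 138 and 60.1 in ATP 4 h. The endothelial markers kdr.S, pecam1.L and pecam1.S, without cdh5, summed to between 0.655 and 4.70 CPM, highest in ATP 4 h replicate 1 and Ctrl replicate 2. Vimentin, vim.S, a mesenchymal filament gene, measured 4.91, 8.95 and 1.52 CPM in Ctrl and 1.38, 1.14 and 0.262 CPM in extract 4 h. The part of such cells in the junction gene values was not tested.

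Time was compared within each stimulus. For extract 4 h against 0 h, edgeR, DESeq2 and limma-voom called 0 of 83 and edgeR 0% of all genes, with 1 junction gene at an unadjusted p under 0.05, beside 2.37% of all genes (1.31% higher and 1.05% lower). That gene was cdh26.L, at 7.01, 8.68 and 6.35 CPM at 4 h and 4.30, 5.85 and 5.79 CPM at 0 h (log2 fold change 0.48 ± 0.197, edgeR adjusted p = 0.9998). The second smallest p-value was that of gja5.L, with 8, 6 and 5 counts at 4 h and 2, 2 and 1 at 0 h (1.73 ± 0.836, edgeR adjusted p = 0.9998). The groups did not overlap for either gene, but gja5.L entered the tests through its 4 h libraries, so its direction is not independent of the filter. In all, groups did not overlap for 9 junction genes, 8 higher at 4 h, beside 7.06% of all genes (3.73% higher and 3.33% lower).

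For ATP 4 h against 0 h, edgeR and limma-voom called 0 of 83, and edgeR called 0.0125% of all genes. DESeq2 called pcdh1.S with a DESeq2 adjusted p of 0.0491, and the share of all genes it called is not given here. Unadjusted p-values under 0.05 were found for 11 junction genes, 8 higher and 3 lower, beside 8.84% of all genes (4.51% higher and 4.32% lower). No overlap was found for 13, 6 higher and 7 lower, beside 14.3% of all genes (6.48% higher and 7.82% lower). The gene pcdh1.S measured 32.8, 31.2 and 27.2 CPM at 0 h, all under the 38.9 to 43.0 CPM at 4 h, and edgeR gave a log2 fold change of 0.42 ± 0.103 (adjusted p = 0.411). Connexin 40, gja5.L, had 1, 0 and 3 counts at 0 h against 20, 17 and 5 at 4 h, a fitted log2 fold change of 3.13 ± 0.802 (edgeR adjusted p = 0.411). The values did not overlap, yet the 0 h group held so few counts that the fitted size depends on the prior count. Here too the direction of gja5.L is not independent of the filter.

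The 8 claudins were lower at ATP 4 h than at 0 h in all 8 cases, with a median difference of -0.37 log2 units. The value was -0.78 ± 0.245 for cldn6.2.S and -0.37 ± 0.141 for cldn7.S (edgeR adjusted p = 0.515 and 0.547), and the groups did not overlap for either gene. These values share the ATP 0 h libraries with the comparison with Ctrl, so they are not a second observation of the higher level at 0 h.

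Averaged over both stimuli, edgeR, DESeq2 and limma-voom called 0 of 83 junction genes between 4 h and 0 h, beside 0.0582% of all genes called by edgeR. At an unadjusted p under 0.05 there were 10, 7 higher and 3 lower, beside 9.75% of all genes (4.89% higher and 4.86% lower). All 6 libraries at 4 h were above all 6 at 0 h for 2 junction genes, gja5.L and pcdhga3.L, beside 0.561% of all genes in either direction (0.270% higher and 0.291% lower). With 85 counts in all, gja5.L entered the tests through its 4 h libraries, so its direction is not independent of the filter, and without ribosomal RNA genes it was no longer tested. The log2 fold changes were 2.43 ± 0.581 for gja5.L (edgeR adjusted p = 0.258) and 0.28 ± 0.0727 for pcdh1.S (adjusted p = 0.265).

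In the test of whether the change over time differed between the stimuli, edgeR, DESeq2 and limma-voom called 0 of 83 and edgeR 0% of all genes, with 1 junction gene at an unadjusted p under 0.05, beside 1.37% of all genes (0.578% higher and 0.794% lower). It was cldn5.L (-2.07 ± 0.673, edgeR adjusted p = 0.9998), followed by cldn6.2.S, whose log2 difference of 0.74 came to 0.35 without extract 4 h replicate 3. The test for any difference among the 5 groups called 0 of 83 with edgeR and limma-voom, while edgeR called 0.0208% of all genes. DESeq2 called 1, cldn5.L, and the share of all genes it called is not given here. The edgeR adjusted p was 0.413 for cldn5.L, and 9 junction genes had an unadjusted p under 0.05, beside 6.48% of all genes.

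The partners of junctions gave no calls. Of 35 tight junction and polarity partners, 21 adherens junction partners, 8 desmosome and cornified-envelope partners, 1 pannexin and 24 regulators of epithelial junction genes tested, edgeR called 0 in each of the comparisons. The smallest p-value among them was that of snai1.S, a repressor of E-cadherin, which measured 8.57, 9.93 and 8.17 CPM in Ctrl and 4.40, 3.72 and 3.67 CPM at extract 4 h. The groups were apart, with a log2 fold change of -1.18 ± 0.221 (edgeR adjusted p = 0.338), while cdh1.S in the same libraries had a log2 fold change of 0.11 ± 0.136 (edgeR adjusted p = 0.842). At an unadjusted p under 0.05 in that comparison, 5 of the 24 regulators were lower and 0 higher, 1 of 35 tight junction partners was higher and 1 lower, and 0 of 21 adherens junction partners were either, beside 3.57% of all genes lower and 3.70% higher. In the same libraries the summed muscle and mesoderm markers stood at 7.07 to 20.2 CPM, against 14.3 to 109 CPM in Ctrl, and their part in the regulator values was not tested.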

How the data were processed

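The authors deposited expected counts per gene from RSEM, per the file headers. The submitters' processing notes name fastp, STAR, RSEM and limma without roles or versions, and the genome build is not given in the sources used here, so no coordinates or sequences are printed. A second table that the authors deposited holds log2 CPM of 28009 genes after removal of surrogate variables, as its name says, and served as an alternative only. Libraries were stranded, depleted of ribosomal RNA and read as single ends of 75 nt, per the labels.

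Expected counts were rounded. EdgeR 4.0.16 (R 4.3.3) with filterByExpr (24052 genes), TMM factors, a robust quasi-likelihood fit and 1 coefficient per group was the main test, two-sided, with Benjamini-Hochberg adjustment and a threshold of 0.05. CPM uses the TMM library sizes. Standard errors are the log2 fold change over the root of F, and fold changes use a prior count of 0.125. The script was tested on simulated data.

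Alternatives were a replicate block, DESeq2 1.42.0, limma-voom (limma 3.58.1), RLE factors, no filter, summed homeologs, no ribosomal RNA genes, the adjusted table, only the groups compared, and each library left out. Replicate numbers come from the titles. Deviations of same-numbered libraries correlated above 0.1 in all 3 cases for 5 of 10 pairs of groups. These were Ctrl set against either ATP group or extract 0 h, and ATP 0 h set against extract 0 h or its own 4 h group. Only there is a shared number read as a pairing. The main fit had no term for it, and the replicate block did. Between replicates of a group, 28.1% or more of genes differed beyond counting noise, so no library was counted as a repeat.

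Members and lists were chosen with earlier results of these data known. Named genes are the 3 smallest p-values of each comparison with Ctrl, the 2 smallest of the others, the 4 genes with the highest Ctrl mean CPM per class (transcript lengths were planned for but were not available), and a list of well-known junction genes. Others were named after their values were seen. All 150 symbols matched the RefSeq table of Xenopus_laevis_v10.1, used for names and neighbours only. The marker names krt12, krt5 and krt18 matched no gene. A few connexin genes are not reported here by name, but counts over all members include them.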

Additional observations from a re-analysis of the deposited data

Results flagged for a closer look

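For the vessel claudin cldn5.L, the 4 h libraries lay on opposite sides of the 0 h libraries with the 2 stimuli. All 3 libraries at extract 4 h (0.963, 0.620 and 0.524 CPM) were below all 3 at extract 0 h (1.05, 1.13 and 0.995 CPM), and all 3 at ATP 4 h (3.54, 4.69 and 2.14 CPM) were above all 3 at ATP 0 h (1.19, 1.93 and 0.545 CPM). Neither arm passed the edgeR test: 4 h against 0 h was -0.60 ± 0.509 with extract (adjusted p = 0.9998) and 1.47 ± 0.439 with ATP (adjusted p = 0.481), on the log2 scale. The difference between the arms was -2.07 on the log2 scale (SE 0.673), from -2.55 to -1.75 with each library left out, and did not pass the edgeR test after adjustment (adjusted p = 0.9998). With extract, cldn5.L had only 14, 12 and 8 counts at 4 h and 17, 19 and 11 at 0 h. These unscaled counts overlapped, and the nearest scaled values were 0.963 and 0.995 CPM, so the separation with extract depends on the scaling. The other copy, cldn5.S, overlapped in both arms, at -0.70 ± 1.02 with extract and 1.28 ± 0.859 with ATP.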

How the results depend on the processing

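The edgeR count of 0 junction genes called held in 170 of 185 combinations of a comparison with another setting, among them each library left out in turn (lowest 0, highest 0), RLE factors, no filter, summed homeologs, no ribosomal RNA genes and only the groups compared. With the replicate block 1 gene was called for extract 0 h against Ctrl, 1 for extract against ATP at 4 h (cldn5.L, -2.29, adjusted p = 0.0380, where replicate numbers were not read as a pairing) and 3 for any difference (cdh11.S, cdh5.L and cldn5.L), and the block changed no other count. DESeq2 called 1 gene for ATP 4 h against 0 h, 1 for extract against ATP at 4 h and 1 for any difference. On the authors' deposited surrogate-adjusted table, limma called 6 for extract 0 h, 8 for extract 4 h, 1 for ATP 0 h and 2 for ATP 4 h against Ctrl, 11 for ATP 4 h against 0 h, 9 for both stimuli over time, 1 and 8 for extract against ATP at 0 h and 4 h, and 17 for any difference. The cause was not tested. How many surrogate variables were removed is not given, and the test does not count them, so its p-values may be too small. Shares of all genes called with the block, by DESeq2 and on the adjusted table are not given here. The counts above can therefore not be read as particular to junction genes. Fold changes were refitted only for the genes named for their small p-values. None of these reversed in 351 refits, and 18 crossed the threshold. Genes picked for small p-values and refitted on mostly the same libraries can hardly change sign, so this says little about stability. Levels without ribosomal RNA genes were 1.46 to 1.47 times higher by construction. Shares and levels per transcript length were not run. With 3 libraries per group and median standard errors against Ctrl of 0.607 and more at or below 1 CPM, differences of low-level genes were hardly detectable.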
